A study of Caenorhabditis elegans with 12 samples.

Results

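Nucleus-enriched windows are stretches of 1000 bases of the Caenorhabditis elegans genome whose RNA coverage was at least 4 times higher in nuclear than in cytoplasmic RNA, both in the wild type N2 and in the mutant hrde-1(tm1200). They were chosen by the mean coverage of a genotype's nuclear libraries plus 1, divided by the mean of its cytoplasmic libraries plus 1, and by a mean of at least 10 over the 4 nuclear libraries. The rule was met by 433 of the 100257 windows in the deposited table, which is 2.43% of the 17819 windows with a nuclear mean of at least 10. The nuclear and cytoplasmic values chose these windows, so the enrichment is described with no test. Counts of windows that a fit over the whole table called in these fractions are given beside the share of all windows, and nothing about the set is read from them.

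The RNA came from young adult hermaphrodites grown at 23 C for 3 or 4 generations, as N2 or as hrde-1(tm1200), a mutant of hrde-1, which encodes an Argonaute protein of germ cell nuclei. By the labels' protocols, whole RNA, a nuclear-enriched fraction (the pellet under a sucrose cushion) and a cytoplasmic-enriched fraction (the cushion layer) were sequenced after removal of ribosomal RNA and without poly(A) selection. Each of the 6 groups of genotype and fraction had 2 libraries, 1 from generation 3 and 1 from generation 4. The labels do not say whether the libraries of a generation came from 1 culture, so a p-value here reflects library-to-library spread, part of which may be technical. The RNA is of whole animals, so fewer cells of a type and less RNA per cell cannot be told apart. The table names windows by position only. Its chromosome V ends at 20920000 and no source used here names its genome build, so windows are not assigned to genes, exons or introns.

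RNA that stays in the nucleus includes nascent transcripts and the introns cut from them, and the small nuclear and small nucleolar RNAs that act in splicing and in processing ribosomal RNA. Without poly(A) selection a library holds such RNA beside messenger RNA, most of which is exported to the cytoplasm. HRDE-1 binds small RNAs in germ cell nuclei and takes part in silencing transcription of its targets, many of them retrotransposons. The table marks some windows GRTS and some GRH, which in this field refer to transcriptional silencing and to heterochromatin that depend on germline nuclear RNAi. Neither the labels nor the header spell the names out, and how the marks were chosen, possibly with these same libraries, is not known here.

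Values are the authors' normalized coverage, in which every library sums to nearly the same total, so a value is close to a share of its library and not an amount of RNA per compartment. Every column has a floor of 0.1, above which most values lie at whole multiples of a step that is taken as 1 read. A step was 1.05 to 1.93 in nuclear libraries, 1.2 to 1.4 in whole libraries, 1.87 and 2.30 in hrde-1 cytoplasmic libraries, and 4.58 and 3.15 in N2 cytoplasmic libraries. The libraries held 191227 to 908123 reads on this scale, with the fewest in N2 cytoplasmic RNA. Counts of reads below are such read equivalents rounded over the 2 libraries of a group, and their intervals and bounds cover counting error only.

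The windows held a small share of the RNA. They took 3.04% and 3.02% of the coverage of the N2 nuclear libraries of generations 3 and 4, and 3.73% and 3.35% of the hrde-1 nuclear libraries. They took 0.449% and 0.477% in N2 cytoplasmic and 0.551% and 0.522% in hrde-1 cytoplasmic libraries. In whole RNA, which took no part in the choice, the share was 1.93% and 1.72% in N2 and 2.10% and 1.98% in hrde-1, between the shares of the fractions in every library. The lowest hrde-1 whole library was above the highest N2 whole library, and 2 libraries against 2 cannot give a two-sided exact permutation p below 0.333. The share in whole RNA was not tested for that reason.

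The median window had a nuclear mean of 16.9 with an interquartile range of 12.0 to 46.3, and the highest reached 781.1. The median coverage per library was 14.9 and 16.9 in N2 nuclear RNA and 21.3 and 17.7 in hrde-1 nuclear RNA. In cytoplasmic RNA it was the floor of 0.1 in both N2 libraries, and 1.97 and 1.42 in the hrde-1 libraries. The ratio of nuclear to cytoplasmic coverage had a median of 8.4 in N2 and of 7.0 in hrde-1, and 181 of the 433 windows had the higher ratio in hrde-1. In 416 of the 433 windows the lowest of the 4 nuclear libraries was above the highest of the 4 cytoplasmic libraries. The rule used these same libraries and favours such a separation, which was not counted in other windows, so nothing is read from it. At the fold threshold, the 3 windows just inside had smaller ratios of 4.00 to 4.03 and the 3 just outside 3.98 to 3.99. At the level threshold, the nuclear means just inside were 10.0 to 10.03 and those just outside 9.93 to 9.95.

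**Figure D1:**
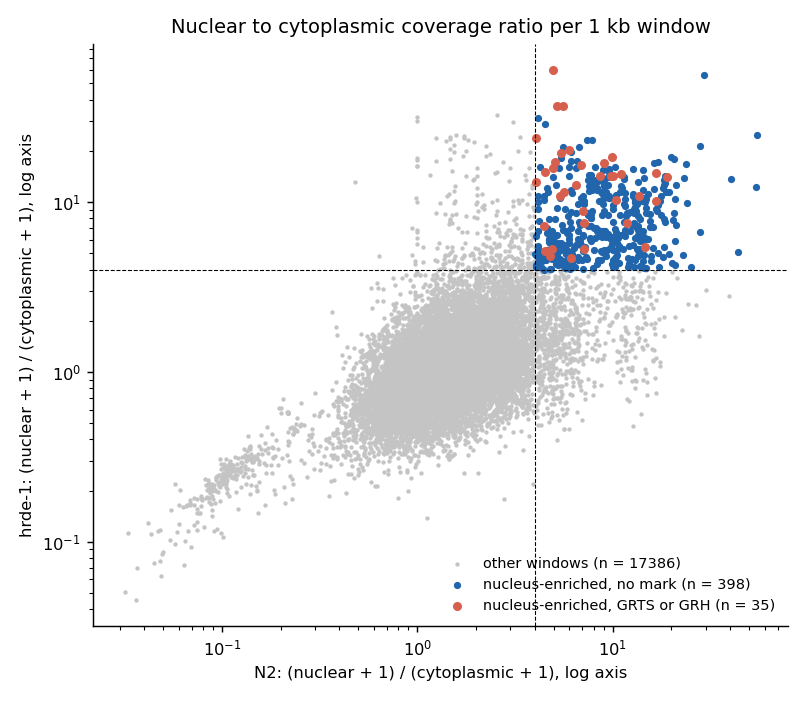
Ratio of nuclear to cytoplasmic coverage, with 1 added to each mean, in N2 (horizontal, log axis) and hrde-1 (vertical, log axis) for the 17819 windows with a nuclear mean of at least 10; each point is a window and the dashed lines mark a ratio of 4. The 433 nucleus-enriched windows fill the upper right corner by the rule. The ratio is higher in hrde-1 in 25 of the 35 with a GRTS or GRH mark and in 181 of all 433. The rule favours this in windows that met the nuclear mean through hrde-1.

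Counting error set how well the enrichment of single windows was known. In N2, 247 of the 433 windows had no cytoplasmic read and 88 had 1 to 3, against 111 and 184 in hrde-1. No reads over both N2 cytoplasmic libraries allowed up to 3 reads, or 5.60 units of coverage above the floor, while the same limit in hrde-1 was 3.10. Set against this limit, nuclear coverage of the 247 windows was 0.596 to 10.6 times as high, with a median bound of 2.19. These bounds leave out the counting error of the nuclear reads, which the exact intervals include. The exact 95% interval of the ratio of reads lay wholly above 1 in 368 windows in N2, in 430 in hrde-1 and in 365 in both. It lay at or above 4 in both genotypes in 52 windows, of which 41 had a nuclear mean of at least 100. The intervals rest on the reads that chose the windows, and the rule favours intervals above 1. They describe single windows, and nothing about the set is read from these counts. For the 68 windows whose interval reached 1 in a genotype, the ratio that placed them in the set rests on a few reads.

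**Figure D2:**
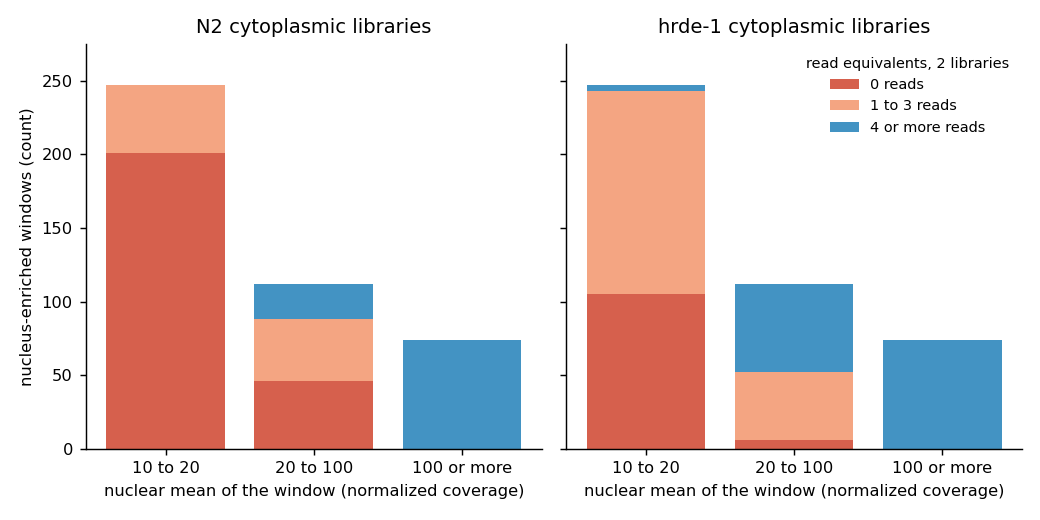
Number of nucleus-enriched windows (vertical) by nuclear mean (horizontal) with 0, 1 to 3, or 4 or more reads over the 2 cytoplasmic libraries of N2 (left) and hrde-1 (right). None of the 74 windows at 100 or more had under 4 cytoplasmic reads, while 201 of the 247 windows at 10 to 20 had none in N2 and 105 had none in hrde-1.

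The choice held in part from one generation to the next. With only the generation 3 libraries the same rule took 536 windows, and with only those of generation 4 it took 562, and 228 windows were in both sets (42.5% and 40.6% of each). Windows chosen on generation 3 alone had a median ratio of 6.74 in N2 and 5.64 in hrde-1 when read in the generation 4 libraries, which had no part in that choice. In both genotypes of generation 4, 390 of the 536 (72.8%) kept a ratio of at least 2. Windows chosen on generation 4 had a median of 6.36 in N2 and 5.07 in hrde-1 when read in generation 3, and 409 of the 562 (72.8%) had at least 2 in both. Over all windows with a nuclear mean of at least 10 in the generation read, the medians were 1.40 and 1.13 in generation 4, and 1.42 and 0.959 in generation 3, for N2 and hrde-1. Of all these windows, 30.31% in N2 and 19.42% in hrde-1 had a ratio of at least 2 in generation 4. The chosen windows had 84.51% and 83.02% there. In generation 3 the shares were 32.52% and 16.01% of all windows, and 83.63% and 83.27% of the chosen ones. The share with at least 2 in both genotypes was not counted over all windows.

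The set fell into bright windows that stood alone and dimmer windows that often lay side by side; the class limits of 20 and 100 were set after the values were seen. There were 74 windows with a nuclear mean of at least 100, 112 from 20 to 100 and 247 from 10 to 20. The 74 brightest held 74.4% of the nuclear coverage of the set. Of them 55 (74.3%) stood alone, with no other member adjacent or with 1 window between, against 101 (40.9%) of the 247 at 10 to 20. In 44 of the 74 (59.5%) both adjacent windows had less than 0.1 of the nuclear coverage of the window itself, against 8.52% of the 1221 other windows as bright. In these windows the coverage dropped within 1000 bases on both sides.

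The brightest of all was on chromosome I from 10517001 to 10518000. It read 727.7 and 740.2 in the N2 nuclear libraries of generations 3 and 4, 867.2 and 789.4 in those of hrde-1, 174.3 and 187.2 in N2 cytoplasmic RNA, and 234.8 and 164.2 in hrde-1 cytoplasmic RNA. Whole RNA read 557.1 and 515.3 in N2 and 572.5 and 548.5 in hrde-1. Every whole library lay between the fractions, and the adjacent windows averaged 9.07 in nuclear RNA. The window on chromosome II from 8075001 to 8076000 had a nuclear mean of 599.0 between neighbours at the floor of 0.1. It read 580.3 and 582.8 in N2 nuclear, 649.7 and 583.0 in hrde-1 nuclear, 59.6 and 69.4 in N2 cytoplasmic, and 69.3 and 55.4 in hrde-1 cytoplasmic RNA. From 1046 nuclear and 35 cytoplasmic reads, its ratio in N2 was 8.91 (exact 95% interval 6.36 to 12.9), and in hrde-1 it was 9.68 (7.45 to 12.8). The 2 genotypes' intervals overlapped over most of their length.

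Among the 10 brightest windows, that on chromosome I from 3001 to 4000 had the highest ratio in either genotype. Its nuclear libraries read 669.5 and 668.3 in N2 and 788.8 and 760.2 in hrde-1, and its whole libraries 424.6 and 406.9 in N2 and 468.2 and 454.3 in hrde-1. Its cytoplasmic libraries read 27.6 and 34.7 in N2 and 84.2 and 62.3 in hrde-1. The hrde-1 cytoplasmic libraries were both above the N2 ones, so the ratio was 21.1 (exact 95% interval 13.1 to 36.3) in N2 and 10.4 (8.17 to 13.4) in hrde-1. The other 9 of the 10 brightest lay on chromosomes I, II, III, IV and V, with ratios of mean coverage of 4.04 to 8.89 in N2 and 4.14 to 9.75 in hrde-1.

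The highest ratios belonged to windows of middling level, where cytoplasmic reads were nearly absent. On chromosome I from 7867001 to 7868000 the nuclear libraries read 54.4 and 64.3 in N2 and 50.2 and 48.6 in hrde-1. Its cytoplasmic libraries read 0.1 and 0.1 in N2, and 1.97 and 0.1 in hrde-1. N2 had 107 nuclear reads and no cytoplasmic read. Against the limit of 3 reads nuclear coverage was 10.6-fold higher, and the exact 95% interval began at 8.50. The hrde-1 libraries had 64 and 1 reads, a ratio of 47.6 (exact 95% interval 8.24 to 1909). On chromosome II from 11532001 to 11533000 the nuclear libraries read 87.4 and 68.8 in N2 and 62.0 and 72.8 in hrde-1. The hrde-1 cytoplasmic reads rounded to 0. Against the limit of 3 reads nuclear coverage there was 22.1-fold higher, and the exact 95% interval began at 17.6. In N2 its 139 nuclear reads stood against 1 cytoplasmic read, a ratio of 41.4 (exact 95% interval 7.31 to 1648). For both windows the upper end of the interval is set by 1 read.

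Joining members with at most 1 window between them gave 253 runs, of which 191 were single windows and 62 held 2 or more. The 16 runs of at least 5 members held 129 windows, on every chromosome but X. The longest was 20 members without a gap on chromosome IV from 11973001 to 11993000, with no GRTS or GRH mark. Its mean coverage was 113.6 and 84.7 in the N2 nuclear libraries of generations 3 and 4, and 110.5 and 64.5 in those of hrde-1. Its whole libraries averaged 52.7 and 35.2 in N2 and 46.0 and 35.6 in hrde-1. Its cytoplasmic libraries averaged 15.9 and 7.5 in N2 and 11.4 and 8.05 in hrde-1. Both genotypes had the same order of fractions in both generations, and within each group the generation 3 library was the higher one, by 1.29 to 2.12 times. Along the run the N2 nuclear mean of a window ranged from 30.1 to 136.9 with a median of 103.8. Nuclear coverage averaged 12.1 over the 5 kb on the low-coordinate side and 9.95 over the 5 kb on the other side, and cytoplasmic coverage 13.3 and 1.68.

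The other long runs were dimmer. On chromosome II from 2278001 to 2292000, 12 of 14 windows were members, and the libraries averaged 11.3 and 17.9 in N2 nuclear, 14.0 and 9.93 in hrde-1 nuclear, and 0.261 to 1.44 in the 4 cytoplasmic libraries. On chromosome II from 14322001 to 14332000, 10 windows averaged 28.5 and 25.6 in N2 nuclear and 33.8 and 34.6 in hrde-1 nuclear RNA, against 1.08 to 3.20 in cytoplasmic RNA. On chromosome III from 11593001 to 11603000, 10 windows averaged 11.2 and 12.0 in N2 nuclear and 12.2 and 12.9 in hrde-1 nuclear RNA, against 0.1 to 0.765 in cytoplasmic RNA. The nuclear libraries of the genotypes overlapped in the first of these runs, while in the other 2 both hrde-1 libraries were above both N2 libraries, and flanking nuclear coverage over 5 kb was 1.46 to 7.05. In those 2 runs many values were not a whole number of reads, so the levels of their windows are uncertain. On chromosome III the N2 cytoplasmic library of generation 4 read 0.25 to 0.98 per window, where 1 read is 3.15. In a further pair of runs, which carried GRTS marks, both hrde-1 nuclear libraries were also above both N2 libraries. On chromosome II from 10932001 to 10942000, with 2 marked windows, the N2 nuclear libraries averaged 15.8 and 13.0 and the hrde-1 nuclear libraries 42.4 and 39.1. On chromosome II from 2155001 to 2164000, with 5 marked windows, they averaged 5.65 and 5.22 against 33.4 and 27.4. In the run from 2155001 the members had N2 nuclear means of 4.27 to 7.80, so they met the minimum of 10 through hrde-1. Some members of the run from 10932001 did so too. The rule thus favours higher hrde-1 nuclear values in this pair. Separation of the genotypes was not counted over other windows, and nothing is read from it in any of these runs. Runs were not tested, and 0 windows of this pair were called in any fraction by limma.

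**Figure D3:**
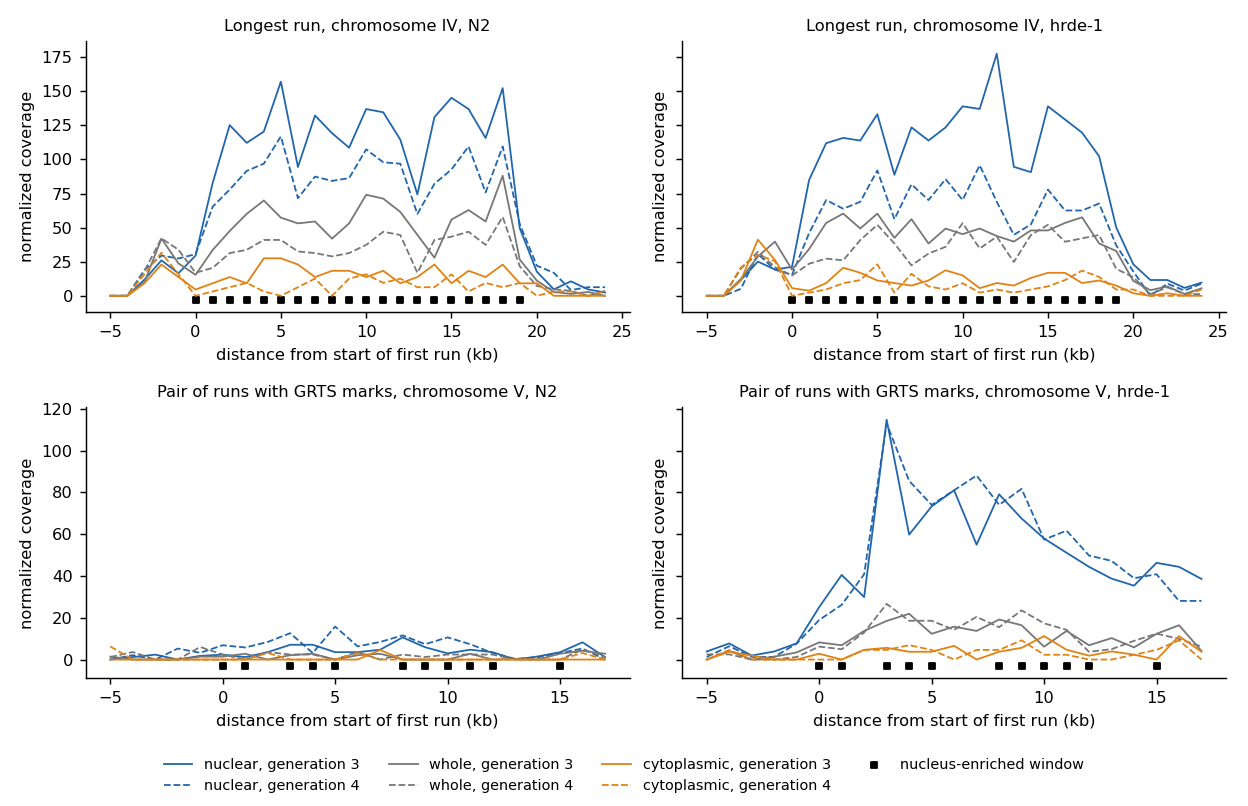
Normalized coverage (vertical) in windows of 1 kb along the longest run on chromosome IV (top) and a pair of runs with GRTS marks on chromosome V (bottom), in N2 (left) and hrde-1 (right); lines are single libraries by fraction and generation, squares mark nucleus-enriched windows. Averaged over the chromosome IV run, nuclear RNA is above whole and whole above cytoplasmic RNA in both genotypes, while the chromosome V runs rise above 40 in hrde-1 nuclear RNA only.

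Members were unevenly spread over the chromosomes. They made up 3.23% of the windows with a nuclear mean of at least 10 on chromosome II, 2.83% on V, 2.79% on I, 2.44% on IV, 1.52% on III and 1.31% on X. On the autosomes the share was higher in the outer parts, the first and last 33.3% of a chromosome, than in the middle. It was 4.27% outside and 1.92% in the middle on II, 3.69% and 1.60% on I, 3.56% and 1.08% on IV, 3.34% and 2.21% on V, and 1.79% and 1.17% on III. On X it was 1.03% outside and 1.78% in the middle, from 20 members. Adjacent members are not independent, so these shares are given with no test.

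Whole RNA read nearer to nuclear RNA in bright windows than in dim ones. Above the floor, whole coverage was a median of 0.660 of nuclear coverage in the 74 windows at 100 or more (interquartile range 0.563 to 0.703), 0.332 in the 112 at 20 to 100 and 0.306 in the 247 at 10 to 20. In other windows of the same levels the medians were 1.03, 1.03 and 0.958. The genotypes gave nearly the same values at the top level, 0.669 in N2 and 0.650 in hrde-1. The rule favours windows whose nuclear value was high by counting error, most of all near a nuclear mean of 10, and its part in the lower ratio of dim members was not tested. Whole RNA reached or passed the nuclear mean in 2 of the 433 windows, and in 50.6% of the other windows. The 2 windows lay on chromosome I from 7264001 and from 7261001, where whole RNA read 1.28 and 1.02 times nuclear RNA.

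**Figure D4:**
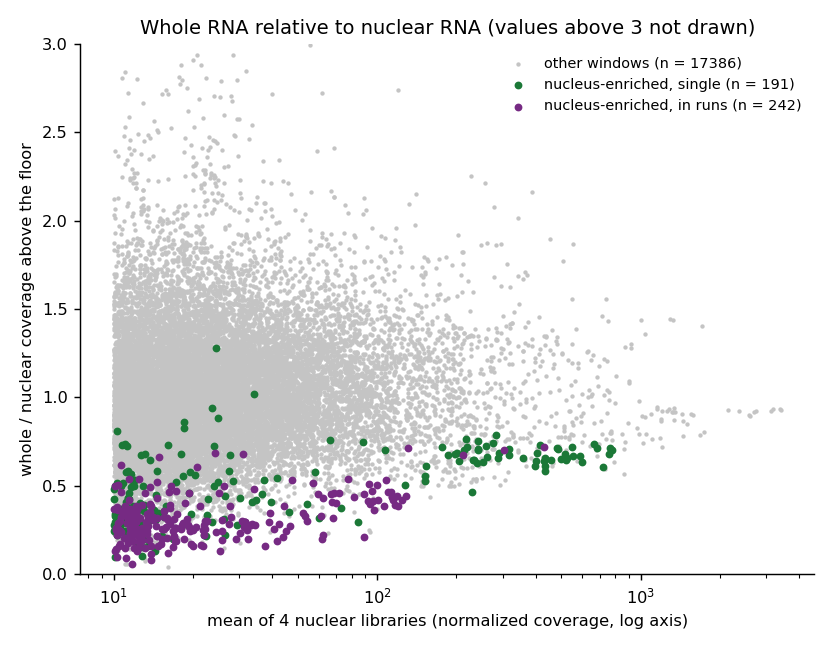
Whole coverage divided by nuclear coverage, both above the floor (vertical), against the mean of the 4 nuclear libraries (horizontal, log axis), for nucleus-enriched windows standing alone or in runs and for the other windows with a nuclear mean of at least 10. The 74 nucleus-enriched windows at 100 or more, single or in runs, have a median of 0.660. Windows in runs of any level lie mostly between 0.2 and 0.5, and 45 other windows above 3 are not drawn.

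Values that were not a whole number of reads were more frequent in the set. At least 6 of the 12 libraries lay off the steps, by 0.0065 or more and at values below 40, in 76 of the 433 windows (17.6%) and in 5.41% of the other 17386. At a nuclear mean of 10 to 20 the shares were 21.9% and 8.53%, and at 20 to 100 they were 19.6% and 3.36%. Among the other windows the share was 10.6% where the smaller of the 2 genotype ratios was 3 to 4. It was 11.1% where that ratio was below 0.5, and 3.99% to 6.77% in the classes from 0.5 to 3. Of the 76 windows, 41 lay in runs of 5 or more members, which is 31.8% of the 129 windows in such runs. The levels of these 76 windows are uncertain, since the sources used here do not say how reads with several matching places were counted. The cause of the values between steps was not tested.

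Marks were more frequent among members than among other windows of at least 10 in nuclear RNA. GRTS marked 22 members (5.08%) and 77 other windows (0.443%), and GRH marked 16 members (3.70%) and 67 others (0.385%), with 3 members carrying both. Marks were not particular to the set. Where the smaller of the 2 genotype ratios was 2 to 3, GRTS marked 23 windows (2.43%) and GRH 14 (1.48%). At a smaller ratio of 3 to 4 they marked 3 (1.10%) and 8 (2.93%). At a nuclear mean of 100 or more, 0 of the 74 members and 0 of the 1221 other windows were marked. Of the 99 GRTS windows with a nuclear mean of at least 10, 68 met the fold in hrde-1 and 25 in N2, while of the 83 GRH windows 24 met it in hrde-1 and 27 in N2. The hrde-1 ratio was the higher one in 21 of the 22 GRTS members and in 7 of the 16 GRH members, against 181 of all 433 members. All 35 marked members had no cytoplasmic read in N2. The rule favours this, since their median N2 nuclear mean was 6.14 and 1 cytoplasmic read takes a window of that level below the ratio of 4. The exact 95% interval of their N2 ratio lay above 1 in 13 of 35, in 5 of the 22 with a GRTS mark and in 10 of the 16 with a GRH mark. In hrde-1 it lay above 1 in all 35. The GRTS members had median nuclear means of 5.19 in N2 and 43.9 in hrde-1, so most met the minimum of 10 through hrde-1. That favours more reads and a higher ratio in hrde-1, so nothing about the genotypes is read from these counts.

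Whole RNA is the fraction the rule did not use, and there hrde-1 was compared with N2 by limma over all 43933 windows with a mean coverage of at least 1. All 433 members passed that filter, as their nuclear level ensured. In whole RNA 4 of the 433 rose in hrde-1 (0.924%) and 0 fell, where 0.0979% of all windows tested rose and 0.00228% fell; 47 members (10.9%) had an unadjusted p of at most 0.05, against 3.72% of all windows. Among the 17386 other windows with a nuclear mean of at least 10, 0.224% rose and 2.38% had such a p. The median log2 difference, on log2(coverage + 1), was 0.18 over the members, 0.00 over all windows and -0.05 over those other windows. Over the 35 marked members it was 2.04, with 33 above 0 and 2 called, and over the 398 unmarked members 0.15, with 258 above 0 and 2 called. Over the 74 brightest members it was 0.12, with 55 above 0 and 0 called. The minimum nuclear mean of 10 is over both genotypes, and the marked members had median nuclear means of 6.14 in N2 and 34.8 in hrde-1. Many of them met it through hrde-1, which favours windows high in hrde-1 in whole RNA too, so their median and counts are a description. The 4 called members, marked or not, all had N2 nuclear means below 10 and met the minimum through hrde-1. For that reason nothing about the set is read from the shares called or from the unadjusted p.

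A pair of the windows that rose in whole RNA carried no mark. That on chromosome V from 15165001 to 15166000 read 1.5 and 1.3 in N2 whole RNA and 28.8 and 33.5 in hrde-1 whole RNA. Its nuclear libraries read 8.36 and 4.31 in N2 and 82.99 and 89.4 in hrde-1, and its cytoplasmic libraries 0.1 and 0.1 in N2 and 11.3 and 4.71 in hrde-1. The genotypes did not overlap in any fraction, and the window rose by log2 3.74 ± 0.557 (SE) in whole RNA (limma, Benjamini-Hochberg adjusted p = 0.0133). Its log2 differences in nuclear and cytoplasmic RNA were 3.63 and 2.93. That on chromosome I from 13853001 to 13854000 read 1.5 and 0.1 in N2 whole RNA and 41.2 and 33.5 in hrde-1 whole RNA. Its nuclear libraries read 6.0 and 1.15 in N2 and 129.2 and 103.4 in hrde-1, and its cytoplasmic libraries 0.1 and 0.1 in N2 and 5.71 and 13.9 in hrde-1. It rose by log2 4.52 ± 0.678 (SE) in whole RNA (limma, adjusted p = 0.0135), and its log2 differences in nuclear and cytoplasmic RNA were 4.91 and 3.19. In N2 these windows had 11 and 6 nuclear reads and no cytoplasmic read, with ratios of 1.09 and 0.596 against the limit of 3 reads. Their nuclear means reached 10 through hrde-1.

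The other windows that rose in whole RNA lay in the GRTS-marked stretch of chromosome V. The window from 5189001 to 5190000 read 0.1 and 1.3 in N2 whole libraries against 16.5 and 23.6 in those of hrde-1. In nuclear RNA it read 6.0 and 7.46 against 67.6 and 81.7, and in cytoplasmic RNA 0.1 and 0.1 against 5.71 and 9.31. It rose by log2 3.71 in whole RNA (limma, adjusted p = 0.0201), and its log2 differences in nuclear and cytoplasmic RNA were 3.29 and 2.92. The window from 5185001 to 5186000 had no N2 whole reads in either library and read 12.4 and 18.7 in hrde-1 whole RNA (limma, adjusted p = 0.0463). In this stretch 5 members lay from 5180001 to 5186000 and 5 from 5188001 to 5193000. The 2 windows between these runs each had a single N2 cytoplasmic read and N2 ratios of 2.25 and 2.26, below the 4 of the rule. The window from 5187001 had N2 means of 6.66 in nuclear and 2.39 in cytoplasmic RNA, and hrde-1 means of 71.6 and 2.4.

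In whole RNA the 4 calls were all lost without either N2 whole, either hrde-1 whole or either hrde-1 nuclear library, and 7 members were called without either N2 cytoplasmic library. They were also lost with a pseudocount of 0.1 in place of 1 and in a fit of only the whole libraries, and 2 remained under median scaling.

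In nuclear RNA, which the rule used, limma called 8 members higher in hrde-1 (1.85%) and 0 lower, where 0.287% of all windows tested were called higher and 0.00910% lower. A window with a low N2 nuclear level could enter the set only through a high hrde-1 level, so nothing is read from these shares. Of these 8, 6 carried a GRTS mark. The median log2 difference was 0.07 over the members, 2.39 over the marked and 0.01 over the unmarked ones. On chromosome V the window from 5183001 to 5184000 read 7.18 and 12.7 in N2 nuclear RNA and 114.8 and 113.0 in hrde-1 nuclear RNA, a log2 difference of 3.44. Its whole libraries read 2.19 and 2.51 in N2 and 18.6 and 26.7 in hrde-1. On chromosome I the adjacent windows from 4461001 and 4462001, which carry both marks, read 8.36 and 9.57 and then 2.46 and 6.41 in N2 nuclear RNA. In hrde-1 nuclear RNA they read 98.4 and 70.2 and then 67.6 and 61.3. The remaining called windows were those on chromosome V from 5184001, 5189001, 5191001 and 15165001 and on chromosome I from 13853001.

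Dropping an N2 nuclear library changed the count of 8 to 1 (generation 3) or 0 (generation 4). It was 0 when a hrde-1 nuclear library of either generation was dropped, and 4 when a hrde-1 whole library was. It was 0 with a pseudocount of 0.1 and 31 with one of 10.

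In cytoplasmic RNA, whose low values the rule chose, limma called 6 members higher in hrde-1 (1.39%) and 0 lower, where 0.803% of all windows tested were called higher and 0.0637% lower. Among the 17386 other windows with a nuclear mean of at least 10 the share called higher was 1.44%, and nothing is read from the members' share. The median log2 difference was 0.33 over the members, 0.25 over all windows and 0.34 over those other windows. Under median scaling it was 0.04 over the members and -0.05 over all windows, with 4 members called higher and 2 lower. Besides the windows on chromosome V from 5183001, 5189001 and 15165001 and on I from 13853001, the calls held the window on I from 3001, with a log2 difference of 1.2. The window on V from 1205001 to 1206000 had no N2 cytoplasmic read and read 7.58 and 5.86 in hrde-1. Its nuclear libraries read 43.2 and 50.9 in N2 and 39.6 and 36.5 in hrde-1. The count of 6 moved with every library left out. Dropping the N2 cytoplasmic library of generation 3 or 4 gave 21 or 42, and dropping either hrde-1 cytoplasmic library gave 1. Dropping an N2 whole library gave 3 or 2, and dropping any nuclear library or a whole library of hrde-1 gave 2. The fit shares 1 spread over all groups, although the N2 cytoplasmic libraries were the shallowest, and with libraries weighted by group 1 call was left. The window on I from 3001 lost its call without the hrde-1 cytoplasmic library of generation 3 and under median scaling, and in a fit of only the cytoplasmic libraries all 6 did.

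**Figure D5:**
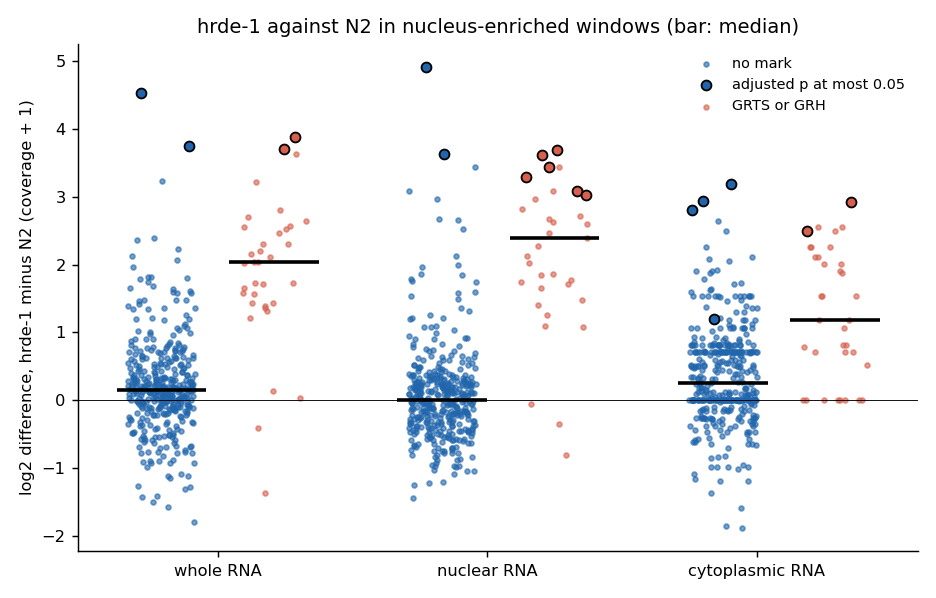
Log2 difference of hrde-1 minus N2 on log2(coverage + 1) (vertical) in whole, nuclear and cytoplasmic RNA for nucleus-enriched windows without a mark (blue) and with a GRTS or GRH mark (red); each point is a window, bars are medians and outlined points have an adjusted p of at most 0.05 in the fit over all windows. The marked windows have medians of 2.04, 2.39 and 1.19, and the unmarked ones 0.15, 0.01 and 0.25.

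The difference in enrichment between genotypes is described by the interaction of fraction and genotype in the same fit. The rule asked for a ratio of at least 4 in both genotypes and so used the same values, and nothing about the set is read from the interaction. Limma called 0 of the 433 members and 0 (0%) of all windows tested. An unadjusted limma p of at most 0.05 was found for 23 members (5.31%) and for 11.5% of all windows. Among the 17386 other windows with a nuclear mean of at least 10 the share was 15.6%. The median interaction on the log2 scale was -0.23 over the members, -0.42 over all windows and -0.45 over those other windows, with a median standard error of 0.966 for a member. Over the marked members it was 0.94, where 27 of 35 were above 0, against 14448 of all 43933 windows tested. The count became 4 when the generation 3 library of N2 cytoplasmic RNA was dropped, 16 when that of generation 4 was, and 4 with a pseudocount of 10.

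Generation 4 differed from generation 3 in 0 members, while 0.00683% of all windows tested were higher and 0.0455% lower in generation 4 (limma over the 6 groups with a generation term). An unadjusted p of at most 0.05 was found for 34 members (7.85%), against 7.80% of all windows, and the lowest adjusted p of a member was 0.182. All 6 groups were lower in generation 4 in 28 members (6.47%) and higher in 1, and in 3.84% and 2.94% of the other windows. At a nuclear mean of at least 100 the shares lower in all 6 groups were 20.3% of the members and 20.9% of the others.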

How the data were processed

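RNA coverage was analysed in 12 libraries, 2 for each of 6 groups of genotype and fraction. The authors deposited a coverage signal per window of 1000 bases, normalized and with a floor of 0.1. Bowtie 0.12.7 is named in the submitters' processing notes. No source used here states the build, the strand, the scaling or the counting of reads with several places. The available annotation has genes on chromosome V past the last window of the table, so it is of another build and was not used, and no gene lists or sequences are reported.

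Libraries were assigned by their labels, and windows were chosen by the stated rule in Python 3.11.15 (pandas 2.3.3, scipy 1.17.1 for exact intervals). The members, lists and tests were chosen with earlier results of these data known. Two-sided tests used limma 3.58.1 in R 4.3.3 (lmFit, eBayes, trend) on log2(coverage + 1) over the 43933 windows with a mean of at least 1. The 6 groups shared 1 fit of all libraries (6 residual degrees of freedom), with Benjamini-Hochberg adjustment over all windows and a threshold of 0.05. The added 1 makes differences of low windows too small. The generation fit added 1 term. The method was tested on simulated data, where the shared spread made more false calls than the threshold allows in the cytoplasmic comparison, so calls there are given with fits that do not share it. Below 40, 80.2% to 89.7% of values lay within 0.0065 of a whole number of reads. Since coverage is no raw count, count models were left out. Named windows are the 6 longest runs, the 10 brightest members, the 10 with the highest ratio, the called members with the lowest adjusted p, the edges of the rule, the brightest marked members and the extremes of whole to nuclear coverage, of which examples are given. The windows on V between 5186001 and 5188000 and the split into outer and middle parts were chosen after values were seen. Alternatives changed the pseudocount, filter, scaling, libraries and the rule, and weighting libraries by group was added after seeing the data.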

Additional observations from a re-analysis of the deposited data

How the results depend on the processing

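The number of members was 1652 at a ratio of at least 2 and 119 at 8, 70 with 10 added to both means, 1157 and 186 at a nuclear mean of at least 5 and 20, and 167 under median scaling, which raised the cytoplasmic libraries because their medians were lower; 0.1 added to both means gave 574, and single generations 536 to 562. The median ratio of 8.16 was 8.48 to 9.04 and the median whole RNA level of 5.82 was 5.97 to 6.21 with either generation left out. Members called in whole RNA (4) were 0 with a pseudocount of 0.1, 2 under median scaling, 0 with only the groups compared, 8 with libraries weighted by group, and 0 to 7 with a library left out. In nuclear RNA (8) they were 0 and 31 with pseudocounts of 0.1 and 10, 14 without a filter, 5 with a minimum mean of 10, 5 under median scaling, 24 under quantile normalization, 22 with only the groups compared, 14 with weights, and 0 to 12 with a library left out. In cytoplasmic RNA (6) they were 26 and 1 with pseudocounts of 0.1 and 10, 10 with a minimum mean of 10, 2 under quantile normalization (1 higher and 1 lower), 0 with only the groups compared, 1 with weights, and 1 to 42 with a library left out. These 2 fractions and the interaction use values that chose the members. The interaction (0) had 4 with a pseudocount of 10, 2 without a filter and 0 to 16 with a library left out, and the generation comparison kept 0 in every alternative run. With generation as a replicate block the calls were 4, 7, 8 and 0 in whole, nuclear and cytoplasmic RNA and the interaction. Correlations of the groups' deviations were 0.0110 to 0.0793 over the 43933 windows tested. Counting error in windows of a few reads lowers such values, so they cannot show whether the libraries of a generation are paired. Of the 18 single-window calls, no alternative reversed a direction. The causes of these changes were not tested, and depth in N2 cytoplasmic RNA limits every ratio of dim windows.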

Other observations

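A further 1105 windows with a nuclear mean of at least 10 met the ratio of 4 in only 1 genotype, 810 of them in N2 and 295 in hrde-1. The N2 cytoplasmic libraries were the shallowest, and 8.39% and 4.33% of the other windows of that level were at the floor there, against 0.604% and 1.49% in the hrde-1 cytoplasmic libraries. The part of depth in the larger N2 number was not tested. Another 1113 windows met the ratio in both genotypes but had a nuclear mean below 10, where values are a few reads per library.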
